A study of Mus musculus with 2 samples.

Results

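Mitochondrial-transcript-rich ES cells were the cells of 2 single-cell libraries in which mitochondrially encoded transcripts took an unusually large share of the captured RNA. Members were chosen by measured values. A cell was counted when its barcode held at least 2000 unique molecular identifiers (UMIs, each standing for 1 captured transcript), when 3% to 20% of them came from the 37 genes of the mitochondrial genome, when at least 5% came from the 86 ribosomal protein (RP) genes, and when less than 0.3% came from the 3 collagen genes Col1a1, Col1a2 and Col3a1. In all 154 of 10389 barcodes met these limits, 43 of 4329 in the wild-type library and 111 of 6060 in the Lin28a knockout library. They were compared with 1319 wild-type and 668 knockout reference cells, which met the same limits with a mitochondrial share from 0.5% to below 3%. Both classes were cut from measured UMIs, so the comparisons between them are descriptions and no test was made.

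The libraries came from mouse E14 ES cells, a line derived from the inner cell mass, grown for 2 days in LIF/2i medium on MEF feeder cells and captured in inDrop droplets. The wild-type library was the transfected, otherwise untreated clone a2.1 and the knockout library the CRISPR/CAS9 clone a3.5, whose guide targets the second exon of Lin28a, so each condition was 1 clone and 1 library. Genotype, clone, culture and library preparation therefore cannot be told apart, and every interval below is at 95% and covers counting error only. Lin28a itself had 36 UMIs over the wild-type and 35 UMIs over the knockout members, or 143 and 38.4 counts per 1000000 non-mitochondrial UMIs (CPM), and its transcript level does not check the edit, since the UMIs count the transcript and not the edited site.

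The mouse mitochondrial genome is a small circle that encodes subunits of respiratory complexes I, III, IV and V together with the rRNAs and tRNAs that translate them, while all other subunits, the mitochondrial ribosomal proteins and the transcription machinery come from nuclear genes. Its strands are transcribed as long precursors that are cut at the tRNAs. Most products come from the heavy-strand promoter, and mt-Nd6 and several tRNAs come from the opposite, light-strand transcript. In naive ES cells respiration runs beside active glycolysis.

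The sequences that carry the results below are those of the 2 light-strand genes with the most UMIs and of a heavy-strand gene whose share was higher in both libraries. They are from GENCODE M21 on GRCm38, written 5′ to 3′ on the coding strand. The first line is the start of mt-Nd6, which encodes a complex I subunit, at chrM:14011-14070, minus strand, the second the whole of mt-Ts1, a serine tRNA, at chrM:6870-6938, minus strand, and the third the start of mt-Nd3, another complex I subunit, at chrM:9459-9518, plus strand. Capitals mark the first codon.
mt-Nd6: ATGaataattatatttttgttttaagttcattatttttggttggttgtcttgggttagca
mt-Ts1: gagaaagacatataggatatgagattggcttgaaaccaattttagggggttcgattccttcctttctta
mt-Nd3: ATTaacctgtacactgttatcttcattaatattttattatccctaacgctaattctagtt

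The class was a larger part of the knockout library. It held 43 of 1598 wild-type cells that met the other limits, or 2.69% (exact binomial interval 1.95% to 3.61%), and 111 of 1052 knockout cells, or 10.6% (8.76% to 12.6%), so that the knockout share was 3.92 (2.73 to 5.71) times as large. With the limit at 2.5% or 4% in place of 3% it was 2.36 or 9.62 times as large. No gap at 3% set the cells apart in either library: 26 of 43 wild-type members and 55 of 111 knockout members lay below 3.5%, and 1 wild-type and 12 knockout cells lay at 5% or over. The highest share was 6.34% in wild-type cells and 16.3% in knockout cells. Of the barcodes that met every other limit and held 3% to 20% mitochondrial UMIs, the limit on RP genes kept out 0 in the wild-type library and 42 in the knockout one.

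**Figure D1:**
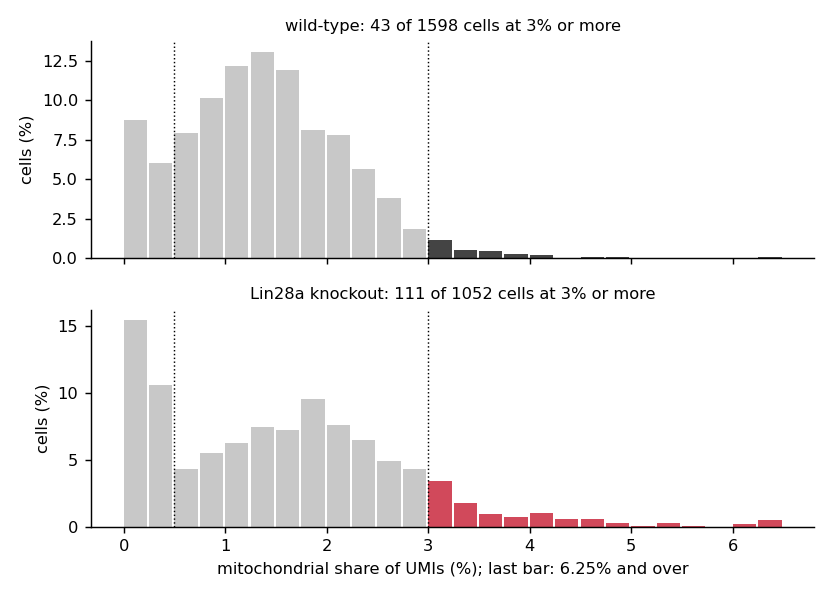
Share of cells (%, vertical axis) by mitochondrial share of UMIs (%, horizontal axis, 0.25 percentage points a bar) in each library; coloured bars are the mitochondrial-transcript-rich cells and dotted lines mark 0.5% and 3%. The coloured tail holds 2.69% of wild-type and 10.6% of knockout cells.

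Median depth differed little between the classes, though wild-type reference cells reached 27958 UMIs and wild-type members 10331. The wild-type members held 2788 to 10331 UMIs (median 5838) and their reference cells a median of 6357, and the knockout members held 2266 to 28734 UMIs (median 8046) and their reference cells a median of 8078. Mitochondrial UMIs per cell had a median of 188 against 90 in wild-type cells and of 299 against 139 in knockout cells, while the median of non-mitochondrial UMIs was 5662 against 6275 and 7747 against 7945. The share of members was also taken by depth. Among wild-type cells it was 5.06% (2.34% to 9.38%) at 2000 to 4000 UMIs and 1.16% (0.140% to 4.11%) at 10000 UMIs or more, and among knockout cells it was 8.97% (4.86% to 14.8%) and 12.2% (8.79% to 16.4%). Within each library the intervals of these ends overlapped. The knockout share was above the wild-type share in each of the 5 classes of depth, with overlapping intervals at 2000 to 4000 UMIs. The doublet caller Scrublet marked 0 members, 21 wild-type and 14 knockout reference cells.

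Markers of ES cells were present in nearly every member. The sum of the 8 markers Pou5f1, Sox2, Nanog, Zfp42, Esrrb, Klf4, Tdgf1 and Dppa5a was 4171 CPM in wild-type members and 4383 CPM in their reference cells, a ratio of 0.952 (0.894 to 1.01), and 4405 and 4624 CPM in knockout cells, a ratio of 0.953 (0.921 to 0.985). All 43 wild-type members and 110 of 111 knockout members held at least 3 UMIs of these genes. When each cell was taken at 1600 non-mitochondrial UMIs, Pou5f1 was seen in 68.7% of wild-type members and in 74.4% of the knockout ones, against 4.67% of 42 wild-type and 11.4% of 13 knockout cells over the collagen limit, which should lack it. The median depths of these collagen-rich cells were 9292 and 7134 UMIs, and without thinning the shares were 100% and 95.5% of members against 9.52% and 23.1%. Klf4, another of the 8, did not set the classes apart: thinned in the same way, it was seen in 52.5% and 56.2% of members and in 63.6% and 44.7% of the collagen-rich cells. Sox2, Nanog, Zfp42, Esrrb, Tdgf1 and Dppa5a were, like Pou5f1, seen in a larger share of thinned members than of collagen-rich cells in both libraries. For Zfp42 it was 75.2% and 68.1% against 2.64% and 2.12%, and for Sox2 26.7% and 13.1% against 2.14% and 3.86%. The check of the label ES cells therefore does not rest on every gene of the sum.

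Markers of other cells were sparse or near the level of the reference cells, apart from primed markers in wild-type members. The 10 feeder fibroblast markers summed to 1022 CPM in wild-type members and 987 CPM in reference cells (ratio 1.04, 0.911 to 1.17), and to 1059 and 973 CPM in knockout cells (1.09, 1.02 to 1.17). Nearly all of it was Fn1, Sparc and Vim, which ES cells also express, while Col1a1, which the class limit used, had 5 and 11 UMIs, Col3a1 had 1 and 1, and Postn was at 0 in both libraries. Of the 7 primitive endoderm markers 6 were at 0 in wild-type and 2 in knockout members, with 1 and 11 UMIs in all, and the 8 2C markers had 2 and 5 UMIs. The 6 primed epiblast markers held 155 CPM in wild-type members against 100.2 CPM (ratio 1.55, 1.09 to 2.13) and 85.6 against 78.8 CPM in knockout cells (1.09, 0.843 to 1.38).

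The 3 marker genes of the class were raised by the limit that chose it. mt-Co1, the catalytic core of complex IV (ENSMUSG00000064351.1, chrM:5328-6872), had 3623 CPM in wild-type members and 1811 CPM in reference cells, and 5589 and 2709 CPM in knockout cells. mt-Nd1, a membrane subunit of complex I, had 5440 against 2155 and 5873 against 2564 CPM, and mt-Cytb, the only mitochondrially encoded subunit of complex III, 1328 against 554 and 2302 against 1087 CPM. At least 1 mt-Co1 and 1 mt-Nd1 UMI was found in 100% of the members of both libraries. Summed by complex, the ratios of members over reference cells were 2.53 in wild-type and 2.28 in knockout cells for complex I, 2.40 and 2.12 for complex III, 2.06 and 2.05 for complex IV, 2.35 and 2.36 for complex V, and 2.52 and 2.23 for the rRNAs mt-Rnr1 and mt-Rnr2. The level in wild-type members was highest for mt-Rnr2 (5738 CPM) and mt-Nd1 (5440 CPM), and in knockout members for mt-Atp6 (6752 CPM) and mt-Nd1 (5873 CPM).

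The make-up of the mitochondrial UMIs differed between the classes. It is not independent of the limit, since heavy-strand genes made up 97.9% and 97.4% of that sum in wild-type and knockout reference cells, and it is given as a description. The 9 light-strand genes held 1.10% of the mitochondrial UMIs of wild-type members (101 of 9178 UMIs, 0.897% to 1.34%) and 2.14% in reference cells (2.06% to 2.22%), a ratio of 0.514 (0.418 to 0.627). In the knockout library they held 1.21% (437 of 36238 UMIs, 1.10% to 1.32%) and 2.57% (2.48% to 2.67%), a ratio of 0.469 (0.423 to 0.519). The intervals of members and reference cells did not overlap in either library, while those of wild-type and knockout members did.

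The level of the light-strand genes differed little between the classes, beside that of the heavy-strand genes. The 9 light-strand genes had 402 CPM in wild-type members and 329 CPM in reference cells (ratio 1.22, 0.992 to 1.49), and 480 and 467 CPM in knockout cells (1.03, 0.926 to 1.14). The 28 heavy-strand genes had 36095 and 15031 CPM (2.40, 2.35 to 2.45) and 39285 and 17688 CPM (2.22, 2.19 to 2.25). mt-Nd6, whose first bases stand above, had 346 CPM in wild-type members against 268 CPM in reference cells (1.29, 1.03 to 1.60). In knockout cells it had 348 against 340 CPM (1.02, 0.907 to 1.15). Its share of mitochondrial UMIs was 0.948% against 1.74% in wild-type and 0.875% against 1.87% in knockout cells. mt-Ts1 had 8 UMIs in wild-type and 106 UMIs in knockout members, and its share was 0.30 (0.13 to 0.59) and 0.48 (0.39 to 0.59) times that in reference cells. Unless the counting used strand, UMIs of light-strand genes cannot be told apart from heavy-strand transcripts that run across the same positions. The strand setting is not given in the sources used here.

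Among heavy-strand genes mt-Nd3 had a larger share in the members of both libraries, though its counts cannot be separated from those of the near-identical nuclear copy Gm28438. It had 835 CPM in wild-type members against 215 CPM in reference cells and 629 against 191 CPM in knockout cells, and its share of mitochondrial UMIs was 1.63 (1.41 to 1.88) and 1.5 (1.35 to 1.66) times that in reference cells. mt-Nd4l, also of complex I, had 32 and 45 UMIs in members and share ratios of 1.75 (1.17 to 2.53) in wild-type and 1.09 (0.757 to 1.55) in knockout cells. mt-Nd2, a further complex I subunit, had shares 1.14 (1.07 to 1.22) and 1.11 (1.06 to 1.16) times as large, while mt-Co1 had shares 0.84 (0.79 to 0.90) and 0.94 (0.91 to 0.97) times those in reference cells. mt-Co3, of complex IV, lay at 0.80 (0.72 to 0.88) and 0.95 (0.90 to 1.01). mt-Cytb lay at 1.01 (0.90 to 1.13) and 0.97 (0.92 to 1.02).

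**Figure D2:**
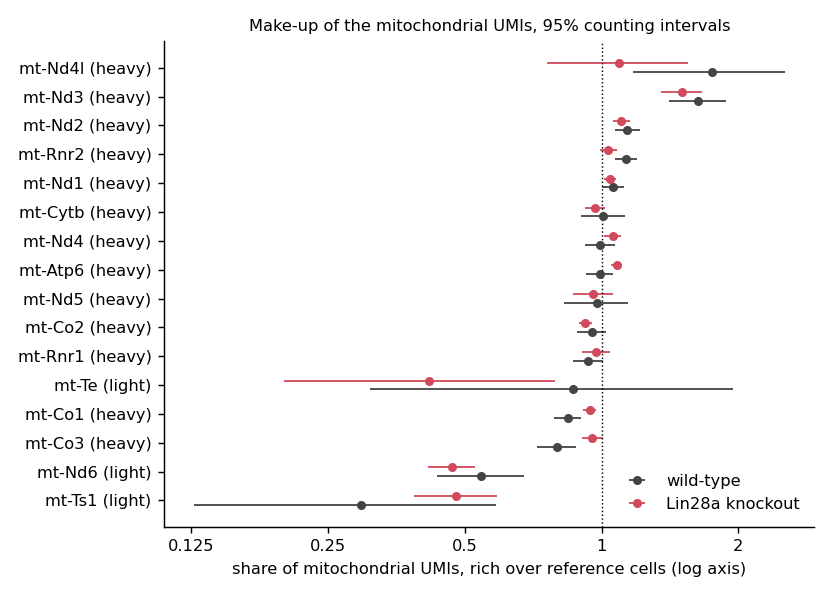
Share of each gene in all mitochondrial UMIs, members over reference cells (log axis, 1 marks no difference), for mitochondrial genes with at least 50 UMIs in the reference cells of both libraries; points are ratios and bars 95% counting intervals, with the coding strand in brackets. mt-Nd6 and mt-Ts1 lie below 1 and mt-Nd3 above 1 in both libraries.

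The make-up also differed between the libraries, in members and reference cells alike. The rRNAs held 23.4% of mitochondrial UMIs in wild-type and 10.8% in knockout members, and 22.1% and 10.6% in reference cells. Complex V, almost all of it mt-Atp6, held 10.3% and 17.0% in members and 10.4% and 15.7% in reference cells. Whether this came with the genotype or with the library cannot be told apart.

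Nuclear genes were compared as CPM over non-mitochondrial UMIs, so that the larger mitochondrial share of the members did not by itself lower them. Of 2512 genes with at least 20 UMIs expected in the members of each library, 52 (2.07%) were higher and 12 (0.478%) lower by at least 1.5-fold in both libraries with counting intervals that left out 1. The median ratio of these genes was 0.998 in wild-type cells and 1.01 in knockout cells. Across the 2512 genes, which share their cells and are not independent, Pearson's r of the log2 ratios of the libraries was 0.64 and Spearman's rho 0.63, with 940 genes above 1 and 900 below 1 in both. In 0 genes was the ratio called higher in 1 library and lower in the other. The 52 and the 2.07% include 6 nuclear pseudogenes of mitochondrial DNA, described below. Without them 46 genes were called higher.

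**Figure D3:**
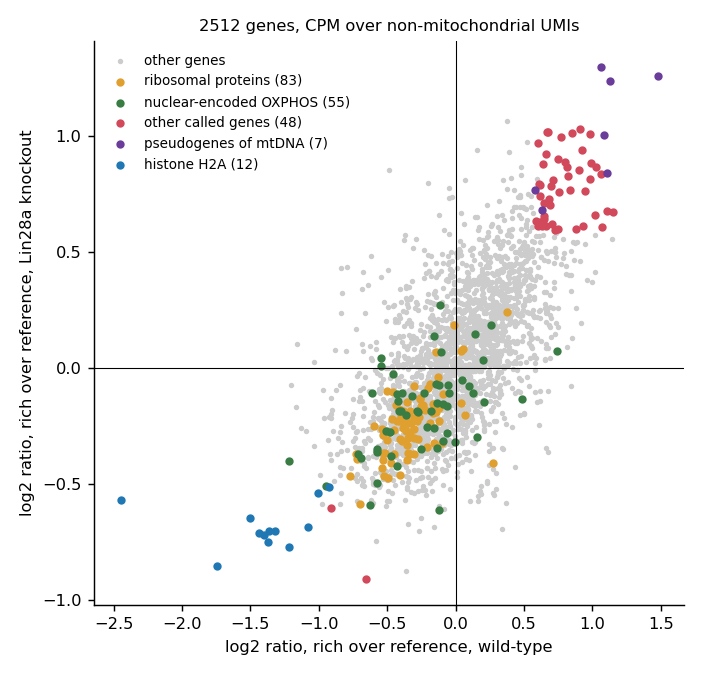
log2 ratio of CPM, members over reference cells, in wild-type (horizontal) and knockout cells (vertical), each point 1 of 2512 genes. Histone H2A genes lie far to the lower left, pseudogenes of mitochondrial DNA to the upper right, and most RP and nuclear-encoded OXPHOS genes a little below 0 on both axes.

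The genes called lower were mostly histone H2A genes, whose products form the nucleosome core and whose mRNAs are made in S phase and for the most part lack a poly(A) tail. The Hist1 cluster on chromosome 13 gave 9 of the 12, and all 12 H2A genes that could be tested of 19 had ratios below 1 in both libraries. Hist1h2ai (ENSMUSG00000071516.2, chr13:21716422-21716814) had 91.5 CPM in wild-type members against 313 CPM in reference cells, a ratio of 0.30 (0.18 to 0.44), and 252 against 457 CPM in knockout cells, 0.55 (0.48 to 0.63). Hist1h2ap had 676 against 1574 CPM (0.43, 0.37 to 0.50) and 1157 against 1976 CPM (0.59, 0.55 to 0.62), and Hist1h2ad 509 against 1352 CPM (0.38, 0.31 to 0.45) and 1153 against 1897 CPM (0.61, 0.57 to 0.65). Hist1h2ah, Hist1h2an, Hist1h2af, Hist1h2ab, Hist1h2ag and Hist1h2ae lay between 0.35 and 0.47 in wild-type cells and between 0.60 and 0.64 in knockout cells.

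These genes are near copies. Over the 28 pairs of equal coding length among them, 97.2% to 99.5% of the coding bases were the same, so their counts can be split between copies and are best read as a sum. The first 60 coding bases of 3 of them show this, with capitals for bases that differ from Hist1h2ai, at chr13:21716422-21716481, plus strand, chr13:21833416-21833475, minus strand, and chr13:23574471-23574530, plus strand.
Hist1h2ai: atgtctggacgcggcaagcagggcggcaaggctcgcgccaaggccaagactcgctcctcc
Hist1h2ap: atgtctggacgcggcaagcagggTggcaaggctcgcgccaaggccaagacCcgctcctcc
Hist1h2ad: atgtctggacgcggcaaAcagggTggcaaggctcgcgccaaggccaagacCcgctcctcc

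The 19 H2A genes together had 2947 CPM in wild-type members and 7577 CPM in reference cells, a ratio of 0.389 (0.361 to 0.418), and 6183 and 10092 CPM in knockout cells, 0.613 (0.596 to 0.630). Cells within each class varied widely. In wild-type members the H2A share of non-mitochondrial UMIs ran from 0% to 2.20% with a median of 0.0617%, against a median of 0.607% in reference cells, and in knockout members from 0% to 3.13% with a median of 0.337%, against 0.836%. The ranges of the classes overlapped in both libraries. At 1600 non-mitochondrial UMIs per cell, a Hist1h2ap UMI was found in 36.0% of wild-type members and 69.9% of reference cells, and in 55.9% and 73.3% in knockout cells, against 9.79% and 21.7% of collagen-rich cells. The unthinned shares of members were 46.5% and 71.2%.

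Genes of S phase lay near 1. The 42 S-phase genes summed to 6426 CPM in wild-type members against 6182 CPM (1.04, 0.989 to 1.09) and to 5207 against 5113 CPM in knockout cells (1.02, 0.987 to 1.05), with 0 of 24 tested members called, near the share over all genes tested (2.07% higher and 0.478% lower). Pcna, the sliding clamp of DNA replication, had ratios of 1.34 (1.17 to 1.53) and 1.21 (1.09 to 1.33), and Nasp, a histone chaperone, 0.93 and 0.92. The other histone classes held few UMIs. H1 had 27 and 29 UMIs in members with ratios of 0.580 (0.381 to 0.847) and 0.441 (0.292 to 0.643). H3 had 21 and 46 UMIs with 0.436 (0.269 to 0.669) and 0.776 (0.558 to 1.06), and H4 5 and 9 UMIs with 0.632 (0.204 to 1.49) and 0.382 (0.171 to 0.745). H2B, in the other direction, had 15 and 37 UMIs with 1.79 (0.987 to 2.99) and 1.24 (0.846 to 1.77). At a limit of 4% the wild-type ratio of H1 was 1.01 (0.407 to 2.09). Over the alternative settings H2B ran from 1.34 to 4.81 in wild-type and from 1.11 to 1.93 in knockout cells. H3 ran from 0.280 to 0.468 and from 0.707 to 0.970, and H4 from 0 to 0.753 and from 0.241 to 0.485. The genes of these classes most counted over members and reference cells together were Hist1h1b, Hist1h1e, Hist1h3c, Hist1h3b, Hist1h2bc, Hist1h2bj, Hist1h4d and Hist1h4i. Each had at most 15 UMIs in the members of either library. They need not be the most counted in members, since Hist1h4d and Hist1h4i had 0 of the 5 H4 UMIs of wild-type members. The histone lists were made after these values were seen.

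The other 3 genes called lower were Gm6344 and Gm11336, pseudogenes on chromosome 13, and Atp5g1. Gm6344 had ratios of 0.63 (0.39 to 0.94) and 0.53 (0.44 to 0.64). Atp5g1 (ENSMUSG00000006057.15), which encodes subunit c of the ATP synthase ring, had 131 against 206 CPM in wild-type cells (0.65, 0.44 to 0.90) and 194 against 293 CPM in knockout cells (0.67, 0.57 to 0.78).

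Nuclear-encoded subunits of the respiratory chain did not follow the mitochondrially encoded ones. The 82 genes of complexes I to V summed to 12642 CPM in wild-type members against 14748 CPM in reference cells, a ratio of 0.857 (0.827 to 0.888), and to 13663 against 15536 CPM in knockout cells, 0.879 (0.863 to 0.896). Of 55 tested genes 40 were below 1 and 4 above 1 in both libraries, but only Atp5g1 was called. Of all 2512 genes tested, 900 were below 1 and 940 above 1 in both libraries, and 0.478% were called lower. The median ratios of the 55 genes, 0.863 and 0.894, stand beside 0.998 and 1.01 for all genes tested. They also stand beside 0.901 and 0.909 for the shortest of 5 length classes of protein-coding genes, described below. The class highest in GC content had 0.911 and 0.932. Whether the OXPHOS genes differed from other genes of their length and GC content was not tested. In single cells the OXPHOS share had a median of 1.26% in wild-type members (0.738% to 1.81%) against 1.44%, and of 1.32% in knockout members (0.678% to 2.09%) against 1.55%.

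The complexes were alike in this, apart from the smallest. Complex I had ratios of 0.831 (0.774 to 0.890) and 0.877 (0.846 to 0.910), with Ndufa4, long listed with complex I and also found in complex IV, at 374 against 507 and 616 against 666 CPM, and Ndufv2, of its catalytic arm, at 179 against 193 and 134 against 167 CPM. Complex III lay at 0.799 (0.703 to 0.905) and 0.881 (0.826 to 0.939), with the hinge protein Uqcrh at 0.52 (0.32 to 0.76) and 0.70 (0.58 to 0.84) and Uqcrb at 1.09 and 0.93. Complex IV lay at 0.847 (0.792 to 0.906) and 0.882 (0.851 to 0.913), with Cox5a at 0.90 and 0.84, and complex V at 0.856 (0.807 to 0.907) and 0.879 (0.852 to 0.907), with Atp5a1 at 1.03 and 0.97 and Atp5l at 0.91 and 0.90. Complex II, which has no mitochondrially encoded subunit, lay at 1.20 (1.01 to 1.41) in wild-type cells and 0.934 (0.845 to 1.03) in knockout cells, with Sdhc at 1.40 (1.03 to 1.83) and 0.91 (0.76 to 1.08) and Sdhd at 1.19 and 1.14.

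The RP genes, which the class limit used, were lower as well, at 73404 against 91356 CPM in wild-type cells (0.803, 0.792 to 0.815) and 87000 against 101399 CPM in knockout cells (0.858, 0.852 to 0.864), with 75 of 83 tested genes below 1 in both. Rpl27a had ratios of 0.87 and 0.94 and Rps24 1.04 and 1.06. The 24 other abundant cytoplasmic mRNAs summed to ratios of 1.01 (0.996 to 1.03) and 1.01 (1.0 to 1.02), with Eef1a1, a translation elongation factor, at 1.0 and 1.05. Of these 24, 13 were below 1 and 7 above 1 in both libraries, with median ratios of 0.943 and 0.956.

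Genes that serve the mitochondrial genome lay below or near 1, apart from the biogenesis regulators. The 78 mitochondrial ribosomal protein genes summed to 0.896 (0.841 to 0.953) and 0.899 (0.869 to 0.930), with Mrpl51 at 0.63 and 0.80 and Mrpl35 at 1.03 and 0.88. Of 15 tested, 4 were below 1 and 3 above 1 in both libraries, with median ratios of 1.03 and 0.895. The 33 genes of mitochondrial DNA expression and maintenance lay at 0.941 (0.838 to 1.05) and 0.940 (0.880 to 1.0). Among them Slirp, an mRNA-stabilising protein, had 211 against 222 and 166 against 203 CPM, and Ssbp1, the single-strand binding protein of mitochondrial DNA, had ratios of 0.83 and 0.83. Tfam, the packaging and transcription factor of mitochondrial DNA, had 15 and 66 UMIs in members and ratios of 0.75 (0.40 to 1.20) and 1.0 (0.76 to 1.30). The 7 biogenesis regulators lay at 1.26 (1.05 to 1.5) and 1.11 (0.982 to 1.26), with the transcription factors Yy1 at 1.27 and 1.12 and Gabpa at 1.35 and 1.23.

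Of the other mitochondrial lists, protein import lay at 1.04 (0.970 to 1.12) and 0.986 (0.945 to 1.03), with the receptor Tomm20 at 1.06 and 1.10 and the channel Timm23 at 1.0 and 0.93. The TCA cycle lay at 0.997 (0.903 to 1.10) and 1.0 (0.949 to 1.06), with citrate synthase, Cs, at 1.29 and 1.07. Dynamics and mitophagy lay at 1.03 (0.908 to 1.17) and 1.10 (1.03 to 1.18), with Map1lc3b at 0.80 and 1.01 and Sqstm1 at 0.98 and 1.11. Mitochondrial chaperones and proteases lay at 0.886 (0.818 to 0.958) and 0.956 (0.917 to 0.997), with the co-chaperonin Hspe1 at 0.75 (0.64 to 0.88) and 0.90 (0.83 to 0.97) and its partner Hspd1 at 0.98 and 1.05. Of these lists 13, 8, 4 and 5 genes could be tested and 0 were called in both libraries, near the shares of 2.07% higher and 0.478% lower over all genes tested.

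Metabolic and stress lists lay near or below 1. Glycolysis lay at 0.932 (0.891 to 0.975) and 0.939 (0.919 to 0.959), with Gapdh at 0.88 and 0.96 and Eno1b at 0.91 and 0.84. Redox and glutathione genes lay at 0.904 (0.861 to 0.948) and 0.907 (0.883 to 0.930), with the peroxiredoxin Prdx1 at 0.99 and 0.90 and the metallothionein Mt2 at 0.77 and 0.80. Targets of Atf4, the factor through which mitochondrial stress reaches the nucleus, lay at 0.941 (0.873 to 1.01) and 0.850 (0.816 to 0.884), with Atf4 itself at 227 against 265 and 221 against 323 CPM and Gars, a tRNA synthetase, at 0.97 and 0.85. Heat shock genes summed to 0.980 (0.948 to 1.01) and 0.951 (0.932 to 0.970), with Hsp90ab1 at 0.96 and 0.89 and Hsp90aa1 at 1.03 and 1.04. Of 10 heat shock genes tested, 4 were above 1 and 3 below 1 in both libraries, with median ratios of 1.01 and 1.04. The Bcl2 family, which controls release of cytochrome c, lay at 0.912 (0.792 to 1.05) and 1.06 (0.991 to 1.14), with the survival factor Mcl1 at 1.15 (0.93 to 1.39) and 1.30 (1.16 to 1.44) and Bax, which permeabilises the outer membrane, at 0.68 (0.45 to 0.96) and 0.93 (0.79 to 1.09).

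Among p53 targets the negative regulator Mdm2 and the cyclin Ccng1 were called higher, 2 of 4 tested, beside 2.07% of all genes tested. The list is short, and Bax, also tested, had ratios of 0.68 (0.45 to 0.96) and 0.93 (0.79 to 1.09). Mdm2 (ENSMUSG00000020184.15) had 195 against 121 CPM in wild-type cells (1.62, 1.18 to 2.14) and 196 against 114 CPM in knockout cells (1.72, 1.45 to 2.03). Ccng1 had 199 against 105 CPM (1.91, 1.39 to 2.51) and 177 against 116 CPM (1.53, 1.28 to 1.82). Cdkn1a, the inhibitor of cyclin-dependent kinases and a main effector of p53, stayed at 1.0 (0.73 to 1.30) and 1.07 (0.91 to 1.24). The list of 30 summed to a ratio of 1.26 (1.14 to 1.39) and 1.26 (1.20 to 1.33). It contained Gm26917, a noncoding gene with no known place in it, at 4.39 (3.22 to 5.78) and 1.54 (1.16 to 2.01), and without it the ratios were 1.14 (1.02 to 1.26) and 1.26 (1.19 to 1.32).

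RNAs listed as nuclear-retained were higher as a sum. The list of 16, of which 15 were found in the files, had 25951 against 20704 CPM in wild-type cells (1.25, 1.22 to 1.29) and 17285 against 13150 CPM in knockout cells (1.31, 1.29 to 1.34), with 0 of 6 tested genes called, too few to set beside the 2.07% of all genes tested. Malat1, a long noncoding RNA of nuclear speckles, had 5810 against 4206 CPM (1.38, 1.31 to 1.46) and 2421 against 1655 CPM (1.46, 1.40 to 1.53). Gm42418, which made up most of the sum, had ratios of 1.23 (1.20 to 1.27) and 1.30 (1.28 to 1.33). Whether its UMIs come from a nuclear RNA was not checked. Without Gm42418 and Gm26917 the ratios were 1.28 (1.22 to 1.33) and 1.35 (1.30 to 1.40), and Malat1 held most of that sum. Kcnq1ot1, an imprinted antisense RNA, had ratios of 1.29 (1.09 to 1.52) and 1.71 (1.58 to 1.85) from 146 and 772 UMIs in members, while Meg3, also imprinted, lay at 0.89 and 0.82.

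Mitosis genes were a little higher, at 1.12 (1.08 to 1.16) and 1.09 (1.07 to 1.12) over 52 genes of G2 and M. Of 35 tested, 20 were above 1 and 9 below 1 in both libraries and 2 were called higher, beside 2.07% of all genes tested. Smc4, a condensin core subunit, was called at 1.61 (1.34 to 1.92) and 1.63 (1.40 to 1.88), as was the kinetochore protein Cenpf at 1.52 (1.18 to 1.90) and 1.53 (1.29 to 1.81), while Hmgb2 lay at 1.06 and 1.03 and Top2a at 1.0 and 1.10. Nucleolar and ribosome assembly genes summed to ratios of 1.06 (1.02 to 1.09) and 1.05 (1.02 to 1.07), but this sum does not stand for most of them. Of 22 tested, 12 were below 1 and 4 above 1 in both libraries, with median ratios of 0.932 and 0.963. Nucleophosmin, Npm1, which had the most UMIs, lay at 1.28 (1.21 to 1.35) and 1.29 (1.24 to 1.33), and nucleolin, Ncl, at 0.98 and 0.92.

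Pluripotency genes did not move as one. Core factors summed to 0.937 (0.876 to 1.0) and 0.913 (0.881 to 0.945). Pou5f1, the Oct4 gene, had 688 against 847 CPM (0.81, 0.69 to 0.94) and 931 against 1089 CPM (0.85, 0.79 to 0.92), and Dppa5a 795 against 1064 CPM (0.75, 0.65 to 0.86) and 1011 against 1268 CPM (0.80, 0.74 to 0.85), while Nanog, named for its place among the ES markers, lay at 1.35 (1.10 to 1.64) and 1.20 (1.07 to 1.35). Naive genes summed to 1.05 (0.984 to 1.12) and 1.05 (1.01 to 1.09), with Zfp42 at 1.25 (1.10 to 1.42) and 1.16 (1.07 to 1.26) and Klf5 at 0.88 and 1.04. Primed epiblast genes lay at 1.35 (1.05 to 1.70) and 1.07 (0.909 to 1.26), with the methyltransferase Dnmt3b at 1.49 and 1.03. The primitive endoderm list, at 1.21 (0.969 to 1.5) and 0.963 (0.844 to 1.10), was mostly Sparc, with Lama1 at 3 and 11 UMIs, and the longer list of 21 2C genes, 10 of them found, held 2 and 5 UMIs, all of them Usp17la and Zfp352. The longer list of 17 fibroblast genes lay at 1.01 (0.894 to 1.14) and 1.07 (1.0 to 1.15), with Fn1 at 0.94 and 1.17 and Vim at 0.93 and 1.10.

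Immediate early genes, induced within minutes of a stimulus, were at 942 CPM in wild-type members against 1485 CPM in their reference cells (0.634, 0.556 to 0.721), and at 1553 against 1554 CPM in knockout cells (0.999, 0.944 to 1.06). Ier2 lay at 0.53 (0.37 to 0.72) and 0.87 (0.77 to 0.98) and the transcription factor Egr1 at 0.73 (0.52 to 0.97) and 1.20 (1.02 to 1.40). The difference between the libraries was not tested.

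Of the 52 genes called higher, 6 were nuclear pseudogenes of mitochondrial DNA on chromosomes 1 and 2. Gm13339 had ratios of 2.78 (2.35 to 3.26) and 2.39 (2.13 to 2.67), Gm13340 of 2.19 (1.88 to 2.53) and 2.36 (2.21 to 2.51), Gm10925 of 2.09 (1.73 to 2.49) and 2.46 (2.25 to 2.68), and Gm28438 of 2.12 (1.56 to 2.78) and 2.01 (1.64 to 2.43). Gm10925 matches mt-Atp6 in 678 of 678 aligned bases and Gm28437 matches mt-Co3 in 783 of 783, and Gm28438 differs from mt-Nd3 at 1 of 345 bases, so counts cannot be assigned between these pairs. Gm13340 and mt-Co1 are the same at 97.6% of 1545 bases. The start of both, at chrM:5328-5387, plus strand, and chr2:22589588-22589647, minus strand, shows how few bases separate a nuclear from a mitochondrial read, with capitals where they differ.
mt-Co1: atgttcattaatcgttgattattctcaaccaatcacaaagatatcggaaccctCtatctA
Gm13340: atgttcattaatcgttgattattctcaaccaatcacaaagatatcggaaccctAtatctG
The 8 such pseudogenes in the list, which was made after values were seen, summed to 3086 against 1491 CPM (2.07, 1.92 to 2.23) and to 3929 against 1833 CPM (2.14, 2.06 to 2.23). They were not counted in the mitochondrial share, and the nuclear CPM includes them. The copies that were aligned matched mitochondrial genes at 96.7% to 100% of bases. Their ratios therefore cannot be taken as independent of the limit on mitochondrial share.

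A further 17 of the 52 were unnamed Gm genes, most of them sharing much of their sequence with at least 1 other. Of these, 13 processed pseudogenes and Gm21897 shared 64.5% to 96.2% of their 21-base words with the closest other member, 10 of them 3841 to 3848 bases long, so their counts are uncertain gene by gene. Gm48082 (ENSMUSG00000111928.1, chr12:10990354-10994195) had 183 against 93.6 CPM in wild-type cells (1.97, 1.42 to 2.63) and 79.0 against 39.4 CPM in knockout cells (2.02, 1.52 to 2.63), and Gm21897 had ratios of 1.88 (1.43 to 2.39) and 2.04 (1.62 to 2.55). Gm26870, a long noncoding RNA on chromosome 9 whose sequence was not compared, had 1245 against 667 CPM (1.87, 1.66 to 2.09) and 363 against 201 CPM (1.81, 1.59 to 2.04).

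The remaining 29 were protein-coding genes with a given name. Ppp1cb (ENSMUSG00000014956.15, chr5:32458843-32517433), a catalytic subunit of protein phosphatase 1, had 350 against 185 CPM in wild-type cells (1.90, 1.51 to 2.34) and 247 against 129 CPM in knockout cells (1.92, 1.64 to 2.23). At 1600 non-mitochondrial UMIs per cell a Ppp1cb UMI was found in 40.5% of wild-type members and 24.3% of reference cells, and in 27.0% and 17.0% in knockout cells. Vbp1, a prefoldin subunit, had 171 against 86.9 CPM (1.99, 1.41 to 2.68) and 106 against 58.0 CPM (1.84, 1.45 to 2.31), and Cip2a, an inhibitor of protein phosphatase 2A, 175 against 86.9 CPM (2.04, 1.45 to 2.73) and 96.6 against 53.1 CPM (1.83, 1.42 to 2.31). Others, picked for mention after their values were seen, were the nuclear export receptor Xpo1 (1.68 and 1.87), the cohesin acetyltransferase Esco2 (1.71 and 2.00), the condensin subunit Smc2 (1.55 and 1.53), the ubiquitin ligase Ube3a (2.02 and 1.58) and Ireb2, an iron-regulated RNA-binding protein (2.22 and 1.59).

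The higher genes were mostly low in GC content. Among 1999 tested protein-coding genes without RP and H2A genes, of which 1997 had an annotated transcript, the longest transcript had a median GC content of 48.4%, and the 30 of them called higher had 39.9%. In 5 classes of equal size from the lowest to the highest GC content, the median ratio was 1.24, 1.10, 1.01, 0.961 and 0.911 in wild-type cells and 1.24, 1.12, 1.04, 0.951 and 0.932 in knockout cells. The lowest class, from 33.9% to 43.4% GC, held 26 of the 30 genes called higher, and the highest 2 classes held 0. Ratios also went with length. The shortest class, up to 1578 bases, had median ratios of 0.901 and 0.909 and the longest, over 5158 bases, 1.16 and 1.17, and the called genes had a median length of 4262 bases against 2981 for all. The order was the same in both libraries at every step of both properties. Each property was taken alone, and the part of each beside the other was not tested.

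**Figure D4:**
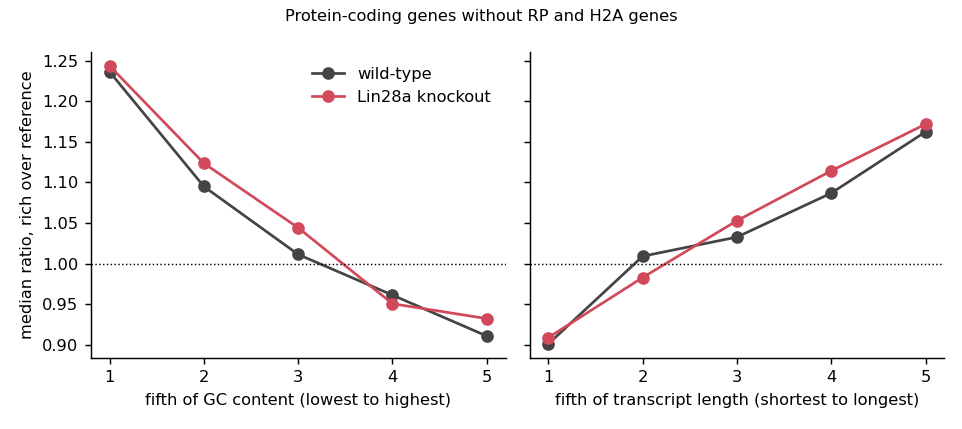
Median ratio of CPM, members over reference cells (vertical axis), of protein-coding genes in 5 classes of transcript GC content (left) and of transcript length (right), 399 or 400 genes a point. The ratio goes from 1.24 to 0.911 and 0.932 along GC content and from 0.901 and 0.909 to 1.16 and 1.17 along length in wild-type and knockout cells.

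The same values also differed among cells below the limit of 3%. With the cells sorted by mitochondrial share, H2A level went from 11025 CPM below 0.5% through 6971 CPM at 1.5% to 2% to 2670 CPM at 3% to 3.5% in wild-type cells, and from 13494 through 8905 to 7233 CPM in knockout cells. Knockout cells at 5% or over had 3454 CPM, from 12 cells. Nuclear-encoded OXPHOS genes went from 20418 through 14026 to 13073 CPM in wild-type cells and from 19356 through 15290 to 13995 CPM in knockout cells, and the median RP share from 15.3% through 8.32% to 7.47% and from 15.9% through 9.55% to 8.51%. Nuclear-retained RNAs without Gm42418 and Gm26917 went the other way, from 2631 through 6658 to 7682 CPM and from 1563 through 3111 to 3810 CPM. The wild-type classes from 3.5% up held 11, 5 and 1 cells and the knockout classes at 3.5% to 4% and from 5% up held 18 and 12, too few to read a trend from.

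Light-strand transcripts differed far less than heavy-strand transcripts along the mitochondrial share. Their CPM went from 225 below 0.5% to 442 at 3% to 3.5% in wild-type cells and from 300 to 467 in knockout cells, while heavy-strand CPM went from 1968 to 32425 and from 2079 to 32613. The light-strand share of mitochondrial UMIs accordingly went from 10.3% through 1.93% at 1.5% to 2% to 1.34% in wild-type cells and from 12.6% through 2.65% to 1.41% in knockout cells. The cells were sorted by a sum made up mostly of heavy-strand UMIs.

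**Figure D5:**
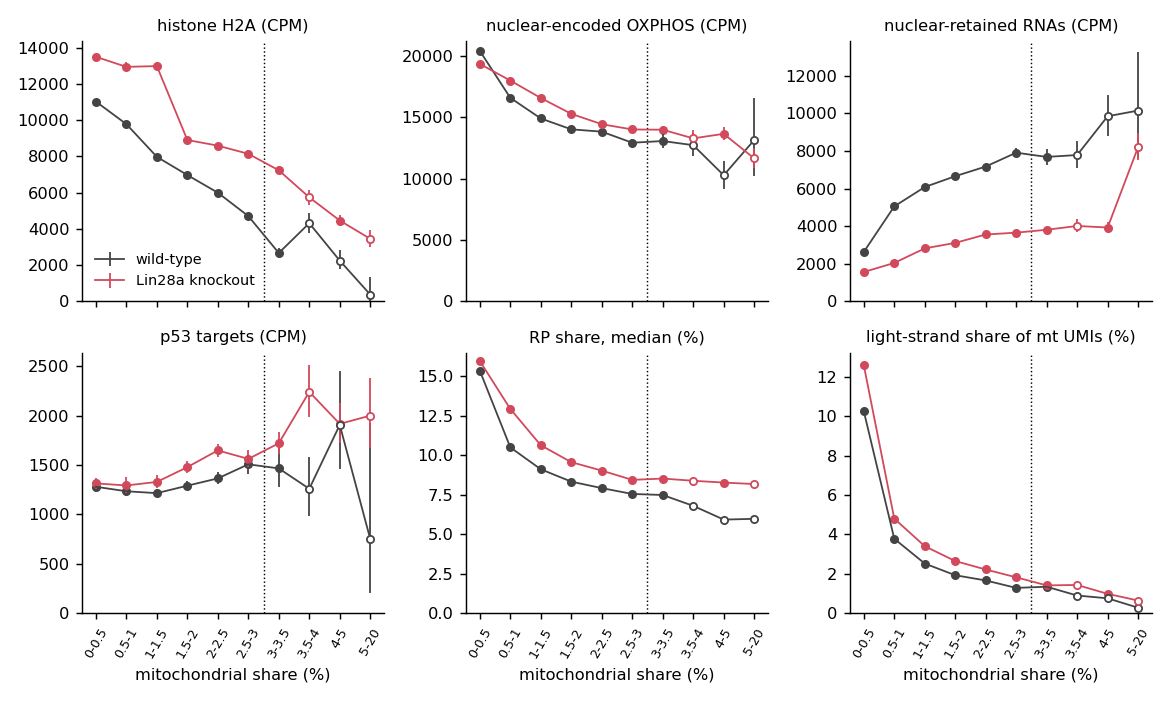
Levels along the mitochondrial share of UMIs (horizontal axis, classes in %): summed CPM of H2A genes, nuclear-encoded OXPHOS genes, nuclear-retained RNAs and p53 targets (the last 2 without Gm42418 and Gm26917) with 95% counting intervals, the median RP share and the light-strand share of mitochondrial UMIs; open points hold fewer than 20 cells and the dotted line marks 3%. H2A, OXPHOS, RP and light-strand values decline from left to right up to 3.5% or beyond, apart from small steps, and nuclear-retained RNAs climb.

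Cells on either side of the limit were close in nuclear-encoded OXPHOS genes and less so in H2A genes. The 30 wild-type cells at 2.75% to 3% had 6368 CPM of H2A genes, 12984 CPM of nuclear-encoded OXPHOS genes and a light-strand share of 1.21%, and the 18 cells at 3% to 3.25% had 3361 CPM, 13071 CPM and 1.38%. In the knockout library the 45 cells just outside had 7844 CPM, 13752 CPM and 2.02% and the 36 cells just inside 6841 CPM, 14011 CPM and 1.45%. The sum of the p53 target list without Gm26917 went in opposite directions across the limit, from 1721 CPM outside to 1324 CPM inside in wild-type cells and from 1538 to 1817 CPM in knockout cells.

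Within the class, knockout and wild-type members were compared directly. Of 2559 nuclear genes with at least 20 UMIs expected in each library, 66 (2.58%) were higher and 78 (3.05%) lower in knockout members by at least 2-fold with intervals that left out 1. Ordered by the interval bound nearest 1 and not by the ratio itself, the first 5 of the higher genes were Hist1h2aj, annotated as a pseudogene (5.35, 3.13 to 10.9), the pseudogenes Gm15590 (4.39, 2.69 to 8.21), Gm6767 (3.15, 2.27 to 4.59) and Ftl1-ps2 (2.74, 2.03 to 3.87), and Ldha, lactate dehydrogenase A, at 256 against 83.5 CPM (3.0, 1.96 to 5.04). In the same order the first 5 of the lower genes were Gm49273 (0.20, 0.14 to 0.28), Gm17132 (0.28, 0.23 to 0.34), Gm26870 (0.29, 0.25 to 0.34), Gm48493 (0.29, 0.23 to 0.36) and Gm48269 (0.30, 0.23 to 0.38). Gm49273 and Gm48493 are among the Gm genes above that share sequence. Lin28a lay at 0.27 (0.16 to 0.44).

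Most of these differences had the same direction between the reference cells. Of the 66 higher genes 64 had a ratio above 1 in reference cells, and of the 78 lower genes all 78 one below 1. Fewer passed the 2-fold rule there, 12 of the 66 and 42 of the 78, beside 18 and 55 of all 2559 genes tested. Ldha had a ratio of 1.74 (1.62 to 1.88) there, Gm49273 of 0.19 and Lin28a of 0.36 (0.32 to 0.42). H2A genes were 2.10-fold (1.94 to 2.27) higher in knockout than wild-type members and 1.33-fold (1.32 to 1.35) in reference cells, immediate early genes 1.65-fold (1.43 to 1.90) and 1.05-fold (1.02 to 1.07), and glycolysis genes 1.37-fold (1.31 to 1.44) and 1.36-fold (1.35 to 1.38). Mitochondrial rRNA had ratios of 0.503 and 0.568, complex V genes of the mitochondrial genome 1.80 and 1.79, and Malat1 0.42 (0.39 to 0.45) and 0.39. The spread between cultures of 1 genotype was not measured, so these ratios compare 2 libraries and not the genotypes.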

How the data were processed

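Single-cell transcripts of mouse ES cells were measured in 2 inDrop libraries, 1 per genotype. The authors deposited 1 table per library of whole UMI counts per gene and barcode, 54146 genes each, not normalized. Per the labels mm10 and Seurat 2.3.4 were used; the aligner and strand setting are not given in the sources used here. The tables held 4329 wild-type and 6060 Lin28a knockout barcodes with 12079546 and 10027710 UMIs, and 63462 and 58924 UMIs that the tables give as ambiguous were not used. Names matched 52480 genes of GENCODE M21 with their version and 54079 without.

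Members and gene lists were chosen with earlier results of these data known, and the histone lists, the list of pseudogenes of mitochondrial DNA and the lists without Gm26917 or Gm42418 were added after values were seen. Counts of a class were summed per library and scaled to non-mitochondrial UMIs. Ratios of single genes had 0.5 added to both counts. A gene was tested where 20 UMIs were expected in the members, and called at 1.5-fold in both libraries (2-fold between libraries) where the 95% counting interval left out 1. With 1 library per genotype there was no test and no p-value, and intervals (exact Poisson or Clopper-Pearson) cover counting error only. Named genes were the mitochondrial genes, Lin28a, the 10 called highest and 10 lowest by the smaller log2 ratio, the 2 most counted genes and the called genes of each list, and the 5 highest and 5 lowest between libraries by the interval bound nearest 1; Tfam, Meg3 and a few named as such in the text were picked after their values were seen. Some genes that this rule names are not reported here. Detection was compared at 1600 UMIs per cell. Scrublet marked 27 of 1856 wild-type (1.45%) and 18 of 1622 knockout barcodes (1.11%) of at least 500 UMIs, and these stayed in. Barcodes were numbered afresh in each table, so shared ones could not be counted. Scanpy 1.11.5 ran Scrublet, Biopython 1.88 aligned sequences, and scipy 1.17.1 gave intervals, in Python 3.11.15, and the scripts were tested on simulated data.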

Additional observations from a re-analysis of the deposited data

Results flagged for a closer look

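Barcodes of 500 to 2000 UMIs lay outside the main measurement. Of those that met the other limits, 60 of 316 knockout barcodes, or 19.0% (exact binomial interval 14.8% to 23.8%), held 3% to 20% mitochondrial UMIs, against 4 of 127 wild-type barcodes, or 3.15% (0.865% to 7.87%). At 2000 to 4000 UMIs the knockout share was 8.97% and the wild-type share 5.06%. Library and genotype cannot be told apart here.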

How the results depend on the processing

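The share of members depended on the limit. At 2.5% it was 8.39% of wild-type and 19.8% of knockout cells, a ratio of 2.36, and at 4% it was 0.375% and 3.61%, a ratio of 9.62, from few cells. With no RP limit the knockout share was 13.9%. Of the 52 genes called higher, 34 of the 45 that could still be tested kept the call with the mean of per-cell shares and 27 of 29 at 5000 UMIs or more, and of all 52, 40 kept it as CPM over all UMIs, 43 with median-of-ratios scaling and 46 without the cells over 5%, the last chosen after seeing the data. Genes called higher were 97 with 10 UMIs expected, 157 with no minimum and 6 at the 4% limit, where 258 genes could be tested. Only 1 of the 52 could be tested at 4%, and it kept the call. Genes called lower were 19 with 10 UMIs expected, 23 with no minimum and 12 at the 4% limit. Of the 12 called lower in the main setting, 5 could be tested at 4%, and all 5 kept the call. The knockout ratio of nuclear-encoded OXPHOS genes was 0.861 as CPM over all UMIs, 0.857 with median-of-ratios scaling and 0.847 at the 4% limit, and the wild-type ratio 0.725 at that limit. The ratio of the light-strand share was 0.420 in knockout cells as a mean over cells, and 0.309 in wild-type and 0.334 in knockout cells at the 4% limit. Between libraries, 15 genes were higher and 5 lower at the 4% limit. Cytoplasmic mRNAs in knockout cells went to 0.992 over all UMIs and 0.987 with median-of-ratios scaling, and histone H1 in wild-type cells to 1.01 at the 4% limit. The cause of these shifts was not tested, beyond the fewer cells and genes at 4%. No paired analysis was possible because each condition had 1 library.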
